A study of Mus musculus with 16 samples.

Results

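CD40 is a receptor of the tumour necrosis factor family on antigen-presenting cells, and the antibody given to the treated mice in these data is directed against it. The set described here is Cd40, its ligand Cd40lg, the adaptors Traf1, Traf2, Traf3, Traf5 and Traf6, the kinase Map3k14 and the transcription factor subunits Nfkb2 and Relb. These 10 genes were chosen by name as the receptor and its signalling chain, and each was found on 1 line of the 32285 genes in all 8 matrices. The cells came from subcutaneous melanomas of the B16 line Bro4.1 in C57BL/6J mice, of which 1000000 control or B2m-null cells had been implanted. All mice received 100 µg of antibody into the peritoneum on days 6, 9 and 12, either anti-CD40 or a rat IgG2a isotype control, and tumours were taken on day 14. Cells were enriched on CD45 beads, each mouse carried its own hashtag antibody, and mice of the same group were pooled before loading. There were 7 pools on 8 lanes, and each lane held 1 group. Each group had 2 pools, called replicates 1 and 2, except control CD40, which had 1 pool on 2 technical lanes. The groups were control tumours under isotype (5 mice), control tumours under CD40 (2 mice), B2m-null tumours under isotype (5 mice) and B2m-null tumours under CD40 (4 mice). These numbers count the hashtags in the files, each taken as 1 mouse. The sample labels list 3 hashtags for every pool, while 2 lanes hold 3 and 6 lanes hold 2, so the numbers of mice are as the files give them. The sample labels attach the B2m loss to the mouse and the design text to the implanted cells, and the design text is followed.

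As background, the ligand CD40LG is carried mainly by activated CD4 T cells, and binding clusters CD40 and draws TRAF proteins to its tail. TRAF2 and TRAF3 normally keep the kinase NIK, the product of Map3k14, at a low level, and their recruitment lets NIK accumulate and p100, the product of Nfkb2, be processed to p52, which pairs with RELB. TRAF6 feeds the canonical NF-kB arm, TRAF5 resembles TRAF2 in its partners, and TRAF1 is an adaptor whose gene is a known NF-kB target, as are Nfkb2 and Relb. Transcript counts measure none of the protein steps.

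On GRCm38 (GENCODE M21), Cd40 (ENSMUSG00000017652) lies on chromosome 2 from 165055627 to 165072948 and Cd40lg (ENSMUSG00000031132) on chromosome X from 57212143 to 57224042. Promoter windows of 250 bases before to 50 bases after a start site were in the RefSeq table (GRCm38.p6) for 7 of the 10 members, and Cd40, Cd40lg and Relb were not among them. The NF-kB (kappaB) consensus, a motif of 10 bases searched on both strands, was found in 4.51% of all 32851 windows. The windows of 3 members are shown because Nfkb2 and Traf1 were among the genes that rose together under CD40 and Traf3 rose in the other tumour genotype, with matches in capitals.
Nfkb2, chr19:46304487-46304786, plus strand: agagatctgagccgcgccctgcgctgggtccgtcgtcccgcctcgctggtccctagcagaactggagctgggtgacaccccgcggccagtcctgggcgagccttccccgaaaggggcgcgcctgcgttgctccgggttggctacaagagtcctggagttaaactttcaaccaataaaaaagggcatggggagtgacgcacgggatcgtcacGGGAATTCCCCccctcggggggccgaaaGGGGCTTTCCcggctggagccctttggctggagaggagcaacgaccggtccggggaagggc
Traf3, chr12:111166120-111166419, plus strand: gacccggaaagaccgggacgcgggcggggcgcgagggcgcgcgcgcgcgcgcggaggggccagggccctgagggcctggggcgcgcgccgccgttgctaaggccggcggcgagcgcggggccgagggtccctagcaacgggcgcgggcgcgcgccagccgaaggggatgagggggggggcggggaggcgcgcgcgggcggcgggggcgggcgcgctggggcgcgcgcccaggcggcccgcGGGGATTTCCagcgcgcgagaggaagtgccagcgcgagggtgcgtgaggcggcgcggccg
Traf1, chr2:34961723-34962022, minus strand: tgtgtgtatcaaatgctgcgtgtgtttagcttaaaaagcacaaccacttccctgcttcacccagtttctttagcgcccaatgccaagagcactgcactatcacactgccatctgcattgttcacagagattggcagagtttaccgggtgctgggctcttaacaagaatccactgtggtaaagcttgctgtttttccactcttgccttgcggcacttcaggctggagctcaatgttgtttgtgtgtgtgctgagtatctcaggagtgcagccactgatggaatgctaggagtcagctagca
The Nfkb2 window held 3 matches in 2 stretches, which began 39 and 11 bases before the start site, and the Traf3 window held 1, which began 10 bases before it. The other 2 Nfkb2 windows in the table held matches as well. No match was in the Traf1 window, nor in those of Traf2, Traf5, Traf6 and Map3k14. A match is a description of the letters and no evidence of binding.

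The 8 lanes held between 45985739 and 99264875 UMIs (unique molecular identifiers, 1 per captured transcript), with a median of 1715 to 4225 per barcode. After filters 91462 cells remained, of which 74089 were assigned to 1 of 16 mice, and pairs of lanes shared 21 to 52 barcodes. B2m-null isotype replicate 1 was weakly stained, and 27.4% of its barcodes had a mouse, so its division into mice is less certain than that of the other lanes. Levels (CPM) are counts scaled to 1000000 UMIs of the summed cells of a class in 1 mouse, with at least 20 cells. The log2 changes between groups carry a further scaling, so they need not match the CPM values. Classes were set by the UMIs of marker lists that contain none of the members. The summed mature dendritic cell (mature DC) markers stood at 6089 CPM in that class and 19.1 CPM in macrophages. The gate used these same markers, so this contrast describes the gate and does not check the class. As a check of the labels, B2m in cells gated as melanoma was between 150 and 380 CPM in the 4 B2m-null pools and between 920 and 1854 CPM in the 3 control pools.

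The receptor was highest in mature DC, the dendritic cells that have taken up a migratory, costimulatory programme. Under isotype, Cd40 in mature DC ranged from 131 CPM to 277 CPM with a median of 223 CPM over 9 mice. In macrophages, it ranged from 21.8 CPM to 70.3 CPM with a median of 44.3 CPM over 10 mice. The 2 ranges did not overlap. Within mice, mature DC exceeded macrophages by 2.25 ± 0.39 on the log2(CPM + 1) scale (SD, n = 9), in 9 of 9 mice, with an exact two-sided sign-flip permutation p of 0.00391, the smallest the design allows (adjusted p = 0.00781 over 4 planned comparisons). This adjustment pooled Cd40 and Cd40lg, whereas the plan had set it over neighbouring classes for the same gene.

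Next in order came conventional type 2 dendritic cells (cDC2) at 86.9 CPM ± 22.6 (SD, n = 5), monocytes at 74.8 CPM ± 33.5 (n = 9), macrophages at 44.0 CPM ± 14.5 (n = 10) and type 1 dendritic cells (cDC1) at 37.6 CPM ± 15.3 (n = 9). Of the 13 neighbouring pairs in the order of the 14 classes with 3 or more mice, monocytes against macrophages had the lowest exact permutation p, 0.00391 (adjusted p = 0.0508), with the monocytes higher in 9 of 9 mice. Mature DC stood above cDC2 in 5 of 5 mice, but 5 mice cannot give an exact p below 0.0625. No other neighbouring pair had an exact permutation p under 0.05, so the order among the lower classes was not resolved. Several of these pairs had only 3 to 5 mice, where the smallest possible exact permutation p is 0.0625 to 0.25. Macrophages exceeded CD8 T cells, at 10.9 CPM ± 5.49 (n = 9), by 2.08 ± 0.91 log2 units in 9 of 9 mice (exact permutation p = 0.00391, adjusted p = 0.00781). B cells, which carry CD40 in lymphoid tissue, reached 20 cells in 2 isotype mice only and were not separable from macrophages, with a log2 difference of -0.35 ± 0.83 (SD, n = 2) and an exact permutation p of 1, where 0.5 is the smallest possible. Over all B cells of a pool, Cd40 under isotype was 111 and 16.5 CPM in control tumours (48 and 40 cells). In B2m-null tumours it was 17.6 and 43.6 CPM (26 and 161 cells).

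Cells were also thinned to 1000 UMIs each to set depth aside. In isotype mice, 18.7% of mature DC then held a Cd40 UMI (95% exact binomial interval 16.5% to 21.0%), against 6.75% of monocytes, 3.98% of macrophages and 0.562% of CD8 T cells (0.291% to 0.980%), a class taken as the background for Cd40. Unthinned, the shares of cells with a Cd40 UMI were 47.4%, 13.8%, 19.6% and 3.40% at median depths of 3587, 2363, 5314 and 3568.5 UMIs. Monocytes therefore stood above macrophages in CPM and in thinned cells, and below them only in unthinned cells. Thinning left out 42 mature DC, 389 monocytes, 287 macrophages and 101 CD8 T cells of lower depth. These intervals cover counting error only.

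The ligand was found mainly in T cells. Cd40lg in isotype CD4 T cells ranged from 0 to 39.2 CPM with a median of 22.1 CPM over 7 mice, and in T cells without a Cd4 or Cd8 UMI it averaged 7.96 CPM ± 3.84 (SD, n = 9). The 7 mice had 20 to 71 CD4 T cells each, so their values rest on few UMIs. CD8 T cells averaged 1.09 CPM ± 1.65 (n = 9). CD4 T cells exceeded CD8 T cells by 2.96 ± 2.38 log2 units, in 6 of 7 mice (exact permutation p = 0.0469, adjusted p = 0.0625 over the 4 comparisons), which misses the threshold after adjustment. No Cd40lg UMI was seen in 4403 isotype monocytes, and 3 of 16544 macrophages held one. Thinned, 3.61% of CD4 T cells held a Cd40lg UMI (1.81% to 6.36%) and 0 of 4014 monocytes did, for which a floor of 3 counts allows a share of cells with a UMI of up to 0.0747%. That floor limits detected UMIs and not cells that express the gene.

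**Figure D1:**
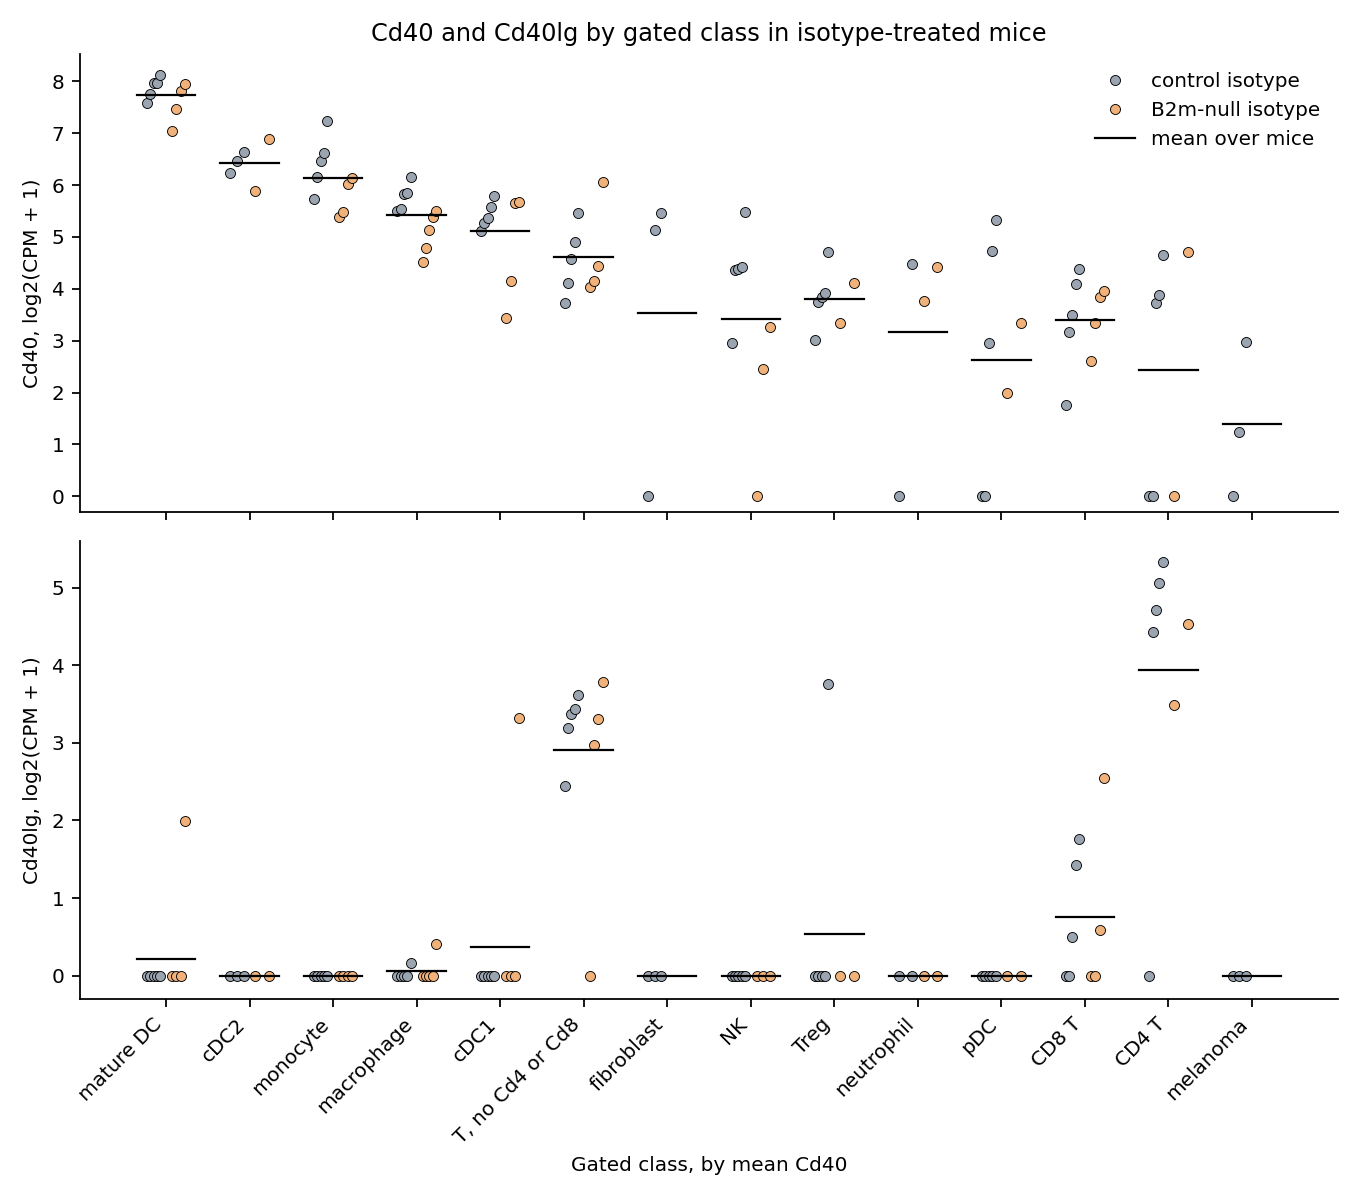
Cd40 (top) and Cd40lg (bottom) as log2(CPM + 1) by gated class in isotype-treated mice, with 1 point per mouse with at least 20 cells of the class and a line at the mean. Mature DC, with a median of 223 CPM of Cd40, lie above the macrophages at 44.3 CPM, and Cd40lg points above 0 are mostly in CD4 T cells and T cells without Cd4 or Cd8.

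Mature DC also had the highest mean of 4 signalling members. Traf1 averaged 536 CPM ± 146 (SD, n = 9) in them and exceeded the next class, CD4 T cells, in 7 of 7 mice, with a mean log2 difference of 1.31 and an exact permutation p of 0.0156 (adjusted p = 0.156 over the 10 members). Relb averaged 272 CPM ± 81.6, Nfkb2 212 CPM ± 33.5 and Map3k14 194 CPM ± 43.1 (each SD, n = 9). For these 3 genes mature DC were higher than the next class in every mouse that had both, which was 4 of 4 for Relb and 5 of 5 for the others, numbers that cannot give an exact p under 0.05. Traf2, Traf3 and Traf5 had their highest mean in other classes. Traf2 was highest in regulatory T cells at 42.3 CPM ± 20.2 (n = 7), Traf3 in CD4 T cells at 60.4 CPM ± 27.4 (n = 7) and Traf5 in cDC2 at 25.9 CPM ± 14.7 (n = 5). Traf6 was 51.4 to 86.6 CPM in mature DC (n = 9), above the monocytes at 13.6 to 47.7 CPM (n = 9) without overlap. Neutrophils averaged 65.1 CPM ± 56.5 of Traf6 over 4 mice, of which 1 stood at 143 CPM, and exceeded mature DC in 1 of 4 mice. For these 4 genes no difference between the highest class and the next was detected (exact permutation p = 0.625 to 0.938), and the 5 mice for Traf5 and 4 for Traf6 cannot give a p below 0.0625 and 0.125.

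**Figure D2:**
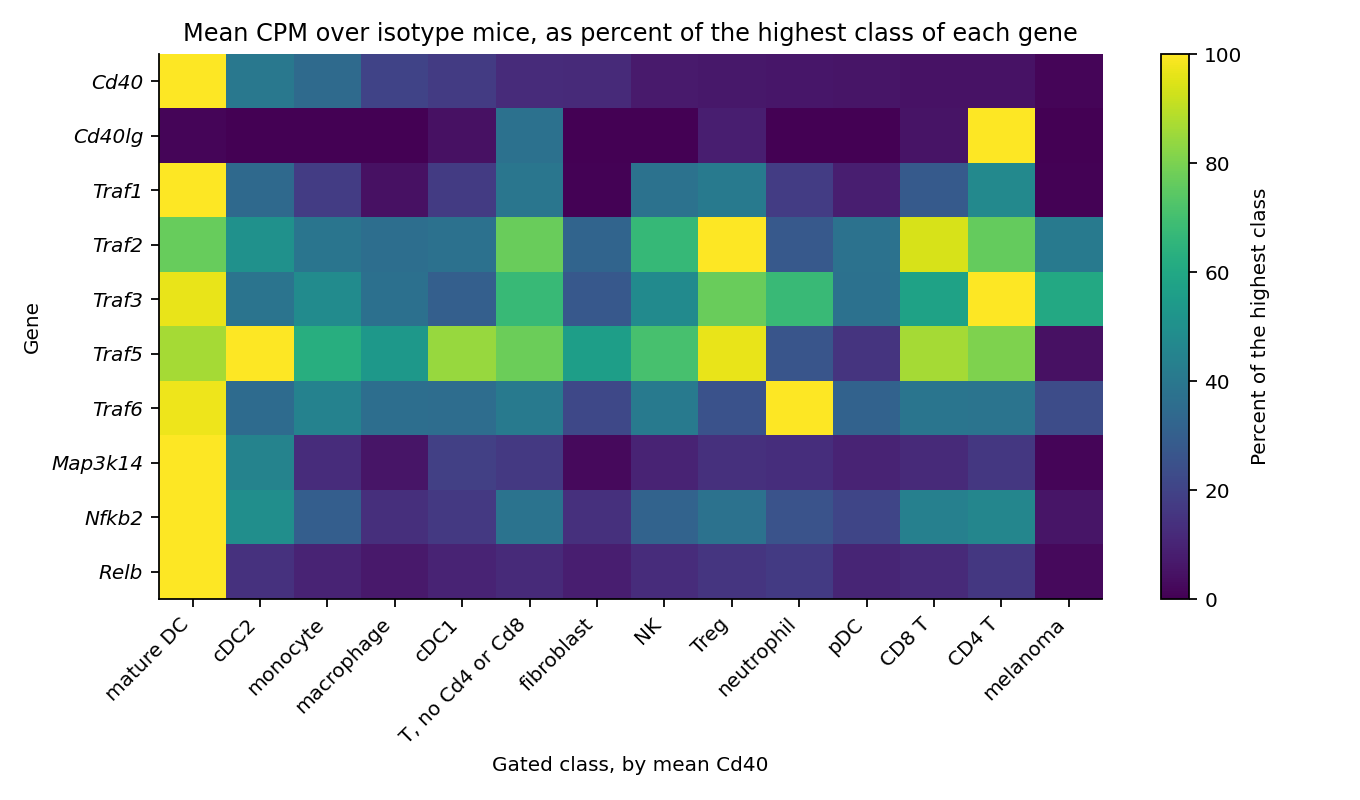
Mean CPM of each member over isotype mice in 14 gated classes, each gene scaled to its own highest class (100 percent). The mature DC column is brightest for Cd40, Traf1, Map3k14, Nfkb2 and Relb, which averaged 217, 536, 194, 212 and 272 CPM there.

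Over the 14 class means, the genes whose log2(CPM + 1) pattern was most like that of Cd40 among 9947 others were Tspo (Pearson r = 0.92), Stxbp6 (0.90), Golph3l (0.88), Adgrg6 (0.88) and Vwa5a (0.88). The classes share mice and lanes, so these values are descriptions. Among the members, Map3k14 was closest at 0.70, with 147 genes above it, followed by Relb at 0.64.

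The antibody comparison was first made in B2m-null tumours, to see how the target and its chain stood after treatment. In macrophages and monocytes Cd40, Traf1, Nfkb2 and Relb all rose under CD40, by 0.61 to 1.31 log2 units. A gene was called at an adjusted p under 0.05 in edgeR's quasi-likelihood test over all genes. In macrophages, 6 of the 9 members that passed the filter on low counts were called and all 6 rose, against 35.2% of the 12032 genes tested. In monocytes, 4 of 9 were called and all rose, against 17.1% of 8658 genes. Cd40lg did not pass the filter in either class. The median log2 change of the members was 0.51 in macrophages and 0.67 in monocytes, where the median of all genes was -0.01 in both.

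Cd40 in macrophages was 26.5, 34.0 and 44.1 CPM in the mice of B2m-null isotype replicate 1 and 40.8 and 21.8 CPM in those of replicate 2. Under CD40, it was 77.0 and 85.4 CPM in replicate 1 and 45.8 and 60.8 CPM in replicate 2. Every treated mouse was above every isotype mouse. The isotype mouse at 26.5 CPM had 95 macrophages, against 506 to 2378 in the others of its group. That mouse also had the lowest Traf1, Traf2 and Relb of its group in macrophages. The log2 change of Cd40 was 1.20 ± 0.20 (SE, n = 4 against 5, edgeR adjusted p = 0.000287). In monocytes, Cd40 was 40.8, 43.5, 63.5 and 69.8 CPM under isotype and 83.6, 87.0, 119 and 137 CPM under CD40, again without overlap. The log2 change was 1.30 ± 0.26 (SE, n = 4 against 4, edgeR adjusted p = 0.00180). Without B2m-null isotype replicate 2 the monocyte change was 0.85 with an edgeR adjusted p of 0.162.

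Traf1, the inducible adaptor, was 10.6, 25.7, 19.1, 25.1 and 14.3 CPM in isotype macrophages and 48.6, 70.5, 27.5 and 27.5 CPM under CD40. The groups did not overlap, and both mice of replicate 1 stood above both of replicate 2. The log2 change was 1.31 ± 0.26 (SE, edgeR adjusted p = 0.00108), and it was 0.72 without CD40 replicate 1 (adjusted p = 0.0205). In monocytes Traf1 ranged from 58.7 to 83.8 CPM under isotype and from 105 to 174 CPM under CD40, a log2 change of 0.90 ± 0.17 (SE, edgeR adjusted p = 0.00102).

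Nfkb2, which encodes p100, was 53.3 and 57.1 CPM in the CD40 macrophages of replicate 1 and 30.4 and 28.6 CPM in those of replicate 2, against 22.9 to 30.4 CPM under isotype. The rise of 0.79 ± 0.19 log2 units (SE, edgeR adjusted p = 0.00404) rested on 1 of the 2 treated lanes. Without replicate 1 of the CD40 group it was 0.34 with an edgeR adjusted p of 0.118. In monocytes Nfkb2 changed by 0.74 ± 0.21 (SE, edgeR adjusted p = 0.0180), from 36.7 to 63.4 CPM under isotype to 59.2 to 119 CPM under CD40, with the groups overlapping. Leaving out either isotype lane or replicate 1 of the CD40 group ended that call (edgeR adjusted p = 0.0688, 0.0683 and 0.143).

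Relb, the partner of p52, rose by 0.61 ± 0.14 log2 units in macrophages (SE, edgeR adjusted p = 0.00277), from 11.9 to 22.0 CPM under isotype to 22.0 to 26.3 CPM under CD40, where the highest isotype mouse and the lowest treated mouse were level. In monocytes it rose by 0.84 ± 0.23 (SE, edgeR adjusted p = 0.0146), from 13.6 to 30.5 CPM to 34.4 to 49.5 CPM, without overlap. The macrophage call was lost without isotype replicate 2 (edgeR adjusted p = 0.0524), and the monocyte call without isotype replicate 1 or CD40 replicate 2 (0.0625 and 0.224). Without isotype replicate 2 the monocyte change was 1.59 (adjusted p = 0.0238).

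Traf2 and Traf5 were called in macrophages, at 0.51 ± 0.18 and 0.45 ± 0.16 log2 units (SE, edgeR adjusted p = 0.0344 and 0.0408). Their CPM overlapped between groups, from 6.63 to 21.0 CPM under isotype to 13.3 to 25.4 CPM under CD40 for Traf2 while Traf5 was 8.49 to 17.6 CPM under isotype, and the 4 treated mice, the lowest at 13.1 CPM, lay below the highest of these. Both calls ended when counts were scaled by library size alone in place of TMM (trimmed mean of M values), with changes of 0.30 and 0.23 (edgeR adjusted p = 0.222 and 0.269). The Traf2 call also ended without either control isotype lane, B2m-null isotype replicate 2 or B2m-null CD40 replicate 1 (edgeR adjusted p = 0.0519 to 0.513) and in limma-voom with the pool as a correlated block (0.45, adjusted p = 0.0705). The Traf2 change was 0.16 without B2m-null CD40 replicate 1 and 0.84 without replicate 2 of that group. The Traf5 call ended without any of these lanes or B2m-null CD40 replicate 2 (edgeR adjusted p = 0.0569 to 0.228), and without the 5% of cells with the most UMIs (adjusted p = 0.0509). Traf3 and Traf6 were not called in either class, and Map3k14, the kinase, had changes of -0.31 ± 0.15 in macrophages and -0.47 ± 0.27 in monocytes (SE, edgeR adjusted p = 0.130 and 0.254). With library size alone, the Map3k14 change in macrophages was called, at -0.52 (edgeR adjusted p = 0.0193).

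**Figure D3:**
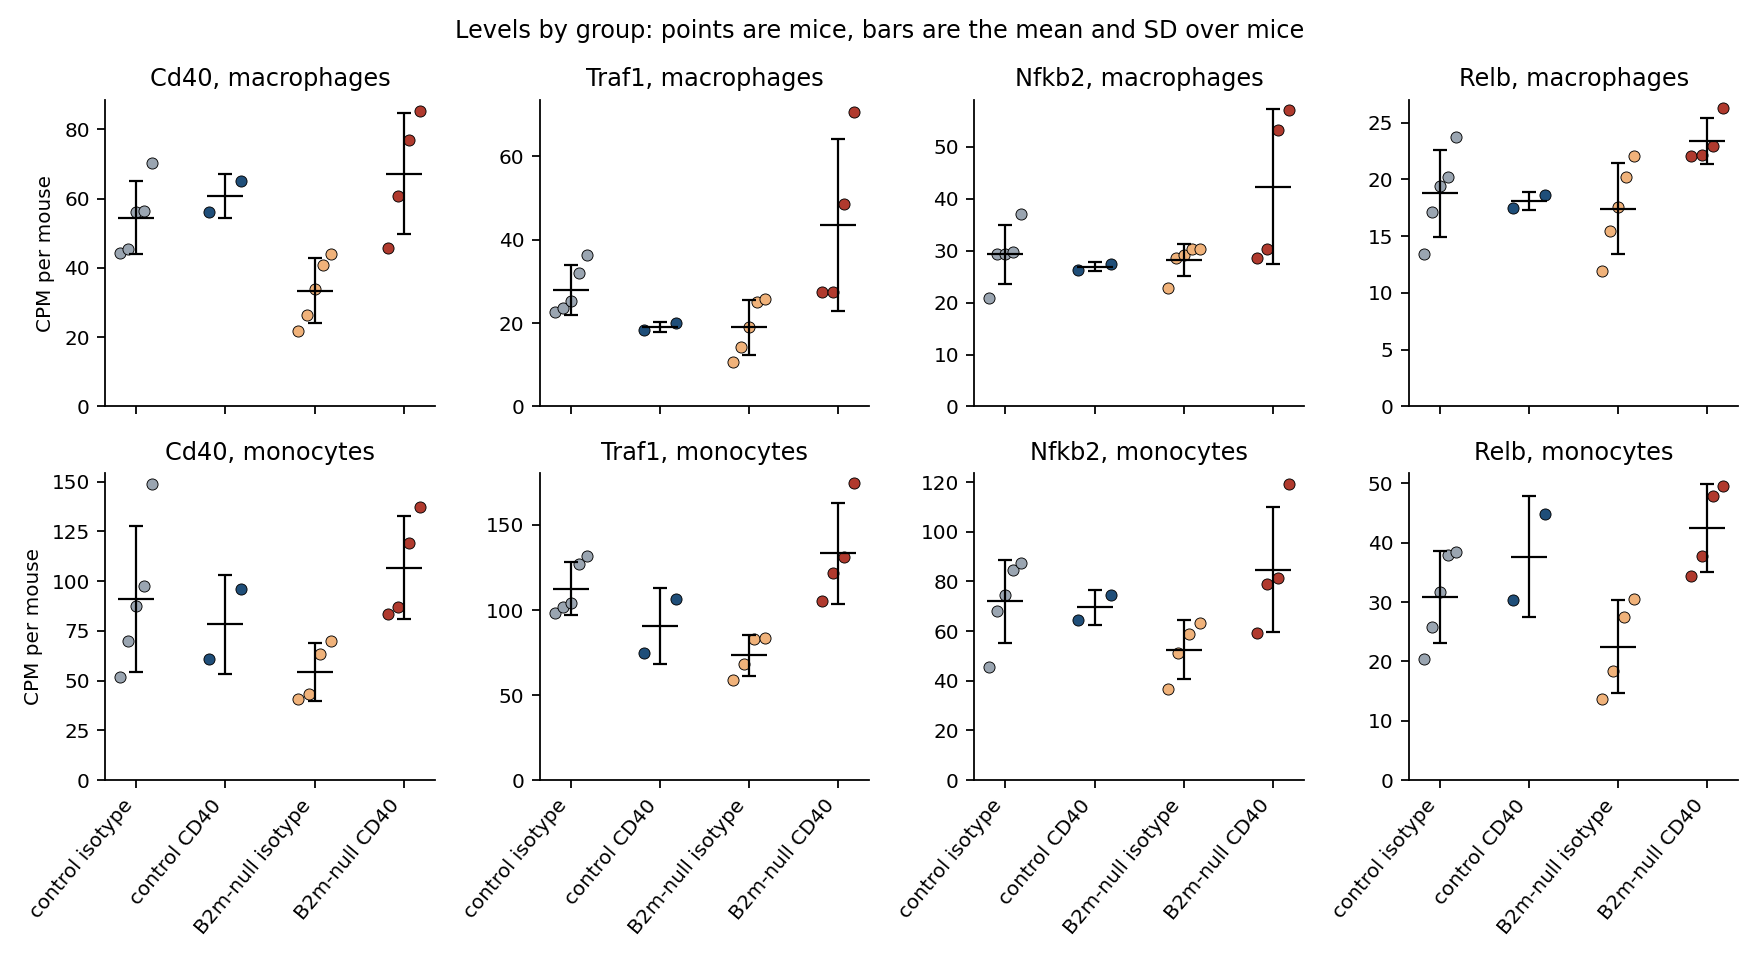
CPM of Cd40, Traf1, Nfkb2 and Relb per mouse in macrophages (top) and monocytes (bottom) of the 4 groups, with the mean and SD over mice. The B2m-null CD40 mice lie above the B2m-null isotype mice for Cd40 in both classes, from 45.8 CPM up in macrophages, whereas the 2 control CD40 mice lie within the control isotype range for Cd40 and, in macrophages, below it for Traf1.

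The same comparison was made in control tumours. In macrophages, 1 of 9 members was called, against 20.7% of all genes, and in monocytes 0 of 9, against 6.92%, with 0 at an unadjusted edgeR p under 0.05 and 0 by DESeq2. Cd40 in macrophages was 56.1, 70.3, 56.4, 45.3 and 44.4 CPM under isotype and 56.3 and 65.2 CPM under CD40, a log2 change of 0.33 ± 0.23 (SE, n = 2 against 5, edgeR adjusted p = 0.339). Cd40 in monocytes was 51.9 to 149 CPM under isotype and 60.8 and 96.0 CPM under CD40, with a log2 change of -0.14 ± 0.34 (SE, edgeR adjusted p = 0.876). Traf1 in macrophages was 22.7 to 36.2 CPM under isotype and 18.2 and 19.9 CPM under CD40, below every isotype mouse. Its log2 changes were -0.37 ± 0.31 in macrophages and -0.38 ± 0.23 in monocytes (SE, edgeR adjusted p = 0.438 and 0.379). The gene called was Traf3, the adaptor that holds NIK low, at 14.8 to 23.8 CPM under isotype and 26.9 and 29.2 CPM under CD40, without overlap. Its log2 change was 0.61 ± 0.20 (SE, edgeR adjusted p = 0.0349), and the call ended without control isotype replicate 2 (0.43, edgeR adjusted p = 0.147), without B2m-null isotype replicate 1 (adjusted p = 0.0513), with the stricter gate (0.52, adjusted p = 0.0794) and with library size alone (0.46, adjusted p = 0.112). It also ended without either control CD40 mouse, at 0.60 and 0.63 (edgeR adjusted p = 0.142 and 0.185), where the 1 mouse left is assumed to vary like those of the other groups. The 2 control CD40 mice came from 1 pool, so the pool and the treatment cannot be told apart.

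The difference between the 2 CD40 effects was tested directly. It was called for Traf1 in macrophages, at 1.69 ± 0.42 log2 units (SE, edgeR adjusted p = 0.0119), and for Traf1 and Cd40 in monocytes, at 1.28 ± 0.28 and 1.44 ± 0.42 (adjusted p = 0.00743 and 0.0349). That was 1 of 9 members in macrophages, against 17.4% of all genes, and 2 of 9 in monocytes, against 9.27%. For Cd40 in macrophages the difference was 0.87 ± 0.31 (SE, edgeR adjusted p = 0.0625), which was called by DESeq2 (adjusted p = 0.0422), with no filter on low counts, with the replicate block, and without B2m-null CD40 replicate 2 or control isotype replicate 2 (edgeR adjusted p = 0.0270 to 0.0413). Nfkb2 in macrophages was called without B2m-null CD40 replicate 2 (1.10, edgeR adjusted p = 0.00652). Traf1 in macrophages lost the call without control isotype replicate 1 (adjusted p = 0.0702), and its difference was 1.09 without B2m-null CD40 replicate 1 (adjusted p = 0.0307). Cd40 in monocytes lost it without that lane, B2m-null isotype replicate 2 or B2m-null CD40 replicate 1 (edgeR adjusted p = 0.112, 0.243 and 0.102), in limma-voom with the pool as a correlated block (0.0868), with library size alone (0.0696) and with the cells free of T, NK and mature DC markers (0.0916). Traf1 in monocytes lost it with the stricter gate (0.95, edgeR adjusted p = 0.0650). Leaving out 1 of the 2 control CD40 mice ended the Traf1 call in macrophages in both cases (1.60 and 1.81, edgeR adjusted p = 0.0665 and 0.0531), and that of Cd40 in monocytes (1.22 and 1.87, adjusted p = 0.165 and 0.0836). Traf1 in monocytes kept it without mouse 1 (1.52, edgeR adjusted p = 0.0183) and lost it without mouse 2 (1.01, adjusted p = 0.117). With the lane as the unit none of the 3 differences was called.

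**Figure D4:**
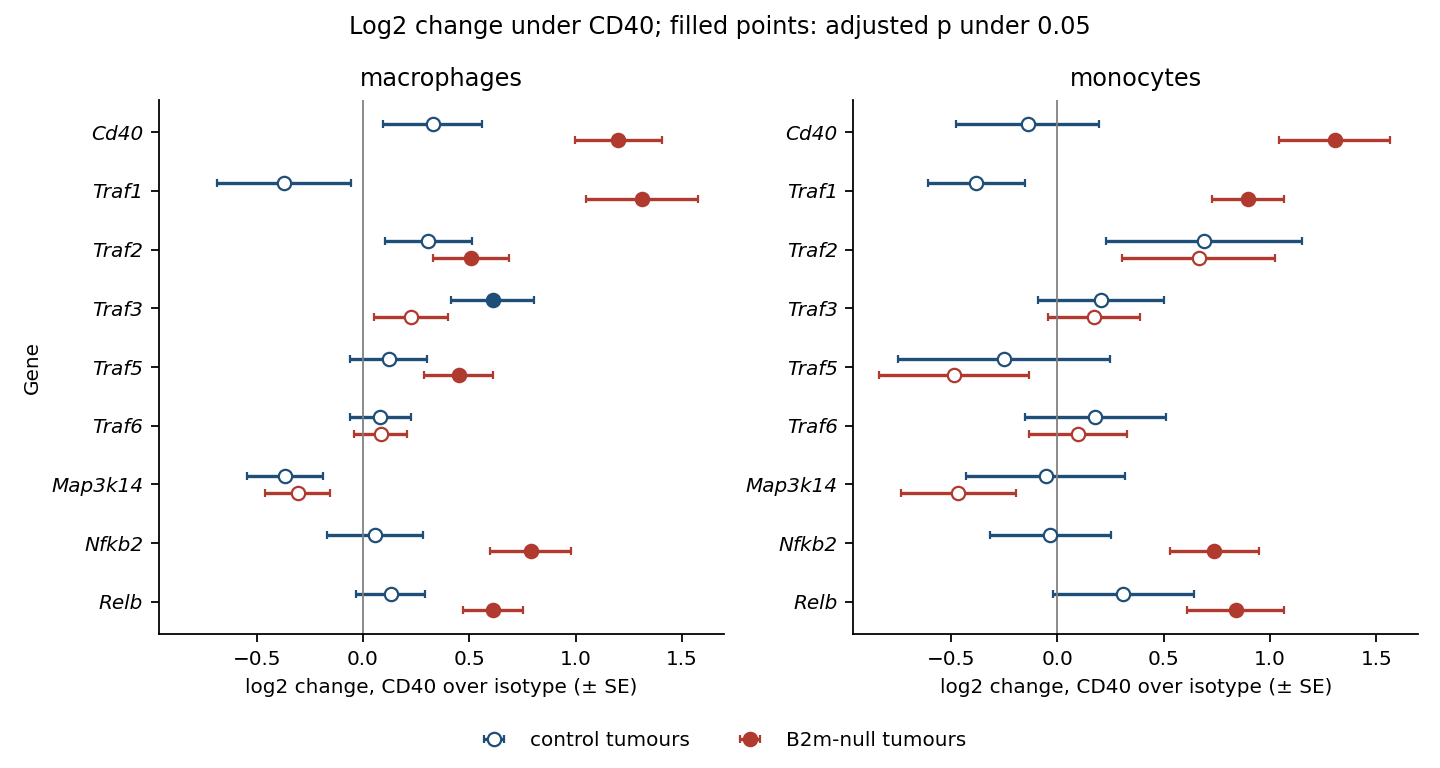
Log2 change ± SE of 9 members under CD40 against isotype in macrophages (left) and monocytes (right), for control and B2m-null tumours. Filled points passed an adjusted p of 0.05, and Traf1 lies on opposite sides of 0 in the 2 genotypes, at -0.37 and 1.31 in macrophages.

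The genotype comparison under isotype shares its mice with the CD40 comparisons. Cd40 in macrophages was lower in B2m-null than in control tumours, with means of 33.5 CPM ± 9.40 (SD, n = 5) and 54.5 CPM ± 10.5 (n = 5). The lowest control mouse, at 44.4 CPM, lay just above the highest B2m-null mouse, at 44.1 CPM. Its log2 change was -0.74 ± 0.20 (SE, edgeR adjusted p = 0.0232), the only call among 9 members, against 10.5% of all genes. The call was lost without control isotype replicate 1 (-0.46, adjusted p = 0.396) and without either B2m-null isotype lane (adjusted p = 0.117 and 0.0607), and in limma-voom with the pool as a correlated block (0.0524). In monocytes the change of Cd40 was -0.93 ± 0.25 (SE, edgeR adjusted p = 0.0637) and 0 of 9 members were called, against 1.71%. In that comparison 3 members had an unadjusted edgeR p under 0.05, and DESeq2 called Cd40 and Traf1 (adjusted p = 0.0342 and 0.0463), as did edgeR with no filter on low counts. Cd40 in monocytes was also called with the stricter gate and without B2m-null CD40 replicate 1 or control isotype replicate 2 (edgeR adjusted p = 0.0155 to 0.0464). Under CD40, Traf1 in macrophages was higher in B2m-null tumours by 1.15 ± 0.33 (SE, edgeR adjusted p = 0.0333), 1 of 9 members against 10.3%, and without B2m-null CD40 replicate 1 the difference was 0.56 (adjusted p = 0.196). In limma-voom with the pool as a correlated block it was 0.98 (adjusted p = 0.0717), and without control CD40 mouse 1 or 2 it was 1.07 and 1.28 (edgeR adjusted p = 0.190 and 0.201). Monocytes had 0 of 9, against 8.2%, with 1 at an unadjusted edgeR p under 0.05 (Traf1) and 0 by DESeq2. Traf1 was called there with no filter (0.75, edgeR adjusted p = 0.0267), and Nfkb2 in macrophages with the replicate block (0.59, adjusted p = 0.0331) and without B2m-null CD40 replicate 2 (0.99, adjusted p = 0.00684).

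Markers of other cells differed between the groups in these classes. In B2m-null monocytes the 9 macrophage markers summed to 2832 to 3994 CPM under isotype and 1225 to 1686 CPM under CD40, and the 6 plasmacytoid (pDC) markers to 121 to 257 CPM and 48.3 to 78.1 CPM. In B2m-null macrophages the 6 neutrophil markers summed to 24.9 to 40.1 CPM and 48.8 to 60.4 CPM, and the pDC markers to 129 to 229 CPM and 73.5 to 99.8 CPM. None of these 4 pairs of ranges overlapped, and the isotype monocytes carried more Cd40 than the macrophages (74.8 against 44.0 CPM) and more Traf1 (95.1 against 23.5 CPM). The monocyte markers in B2m-null macrophages summed to 410 to 1160 CPM and 417 to 1005 CPM, with overlap. In control macrophages they summed to 599.6 to 1572 CPM under isotype and 279 to 310.0 CPM under CD40, without overlap. The 6 T cell markers summed to 3.64 to 18.6 CPM in B2m-null isotype macrophages and 10.5 to 18.7 CPM under CD40, and to 6.05 to 12.5 CPM and 22.3 to 31.1 CPM in control tumours. In monocytes they summed to 3.52 to 45.4 CPM and 14.1 to 36.7 CPM in B2m-null tumours, and to 17.0 to 32.3 CPM and 111 to 175 CPM in control tumours. Control CD40 had 2 mice of the same pool, whose range can lie apart from that of the isotype mice without a group difference. The share of all genes without overlap was not computed. In control monocytes 6 other lists did not overlap between isotype and CD40. The NK markers summed to 1.86 to 8.08 CPM and 23.5 to 57.0 CPM, the B cell markers to 1.89 to 10.2 CPM and 25.6 to 34.2 CPM, and the neutrophil markers to 53.8 to 87.1 CPM and 110.2 to 113 CPM, all higher under CD40. The macrophage markers summed to 2450.2 to 4039 CPM and 1577 to 1967 CPM, the pDC markers to 110.4 to 305 CPM and 68.4 to 96.0 CPM, and the mature DC markers to 17.8 to 37.5 CPM and 11.4 to 12.8 CPM, all lower. In control macrophages the neutrophil markers summed to 25.4 to 43.9 CPM under isotype and 52.4 to 71.6 CPM under CD40, without overlap. The 8 mature DC markers in macrophages summed to 9.70 to 33.4 CPM and 14.1 to 25.4 CPM in B2m-null tumours, and to 11.4 to 21.4 CPM and 5.13 to 10.6 CPM in control tumours, the latter without overlap. Between the genotypes under isotype, where Cd40 in macrophages was called, the pDC markers in macrophages summed to 94.5 to 123 CPM in control and 129 to 229 CPM in B2m-null tumours, without overlap. Between the genotypes under CD40, where Traf1 was called, the T cell, monocyte and mature DC sums in macrophages did not overlap, nor did those of the 5 cDC1 markers, at 88.1 to 104 CPM in control and 35.2 to 61.7 CPM in B2m-null tumours. In an alternative chosen after seeing the data, with only the macrophages and monocytes that held 0 UMIs of the T, NK and mature DC markers, Cd40 and Traf1 in B2m-null macrophages changed by 1.12 and 1.42 and the number of calls was again 10. That alternative sets no limit on the macrophage, monocyte, cDC1, pDC, B cell and neutrophil markers, and the part of the marker differences given here in the results was not tested.

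The lymphoid and dendritic sets were tested in the same way. In CD8 T cells of control tumours 2 of 9 members were called, against 32.1% of all genes. Map3k14 rose by 0.67 ± 0.22 log2 units, from 9.03 to 16.9 CPM under isotype to 20.5 and 24.0 CPM (SE, edgeR adjusted p = 0.0240). Nfkb2 fell, with a log2 change of -0.53 ± 0.18, from 88.5 to 108 CPM to 56.6 and 76.2 CPM (SE, edgeR adjusted p = 0.0318). Neither pair of groups overlapped, and either control isotype lane left out ended both calls (edgeR adjusted p = 0.0738 to 0.143). Without control CD40 mouse 2 the changes were 0.55 and -0.32 (edgeR adjusted p = 0.289 and 0.442), and without mouse 1 both calls held. DESeq2 ended that of Map3k14 (adjusted p = 0.0573), and no filter on low counts that of Nfkb2 (edgeR adjusted p = 0.0661). In B2m-null tumours 0 of 9 members were called in CD8 T cells, against 8.29%, with 1 at an unadjusted edgeR p under 0.05 and 0 by DESeq2. That gene, Traf1, was called with the replicate block (0.46, edgeR adjusted p = 0.0283) and without CD40 replicate 1 (0.54, adjusted p = 0.0203). Of 4 members tested in CD4 T cells 0 were called in either genotype, against 4.98% in control and 2.72% in B2m-null tumours, and of 4 in NK cells 0 were called, against 2.77% and 2.03%. At an unadjusted edgeR p under 0.05 there were 2 in CD4 T cells of control tumours (Cd40lg and Nfkb2), 0 in those of B2m-null tumours and 1 in NK cells of each genotype, and DESeq2 called 0 in these 4 comparisons.

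Cd40lg in CD4 T cells of control tumours was 20.6, 25.2, 0, 39.2 and 32.3 CPM under isotype and 69.2 and 91.9 CPM under CD40. The isotype mice had 22 to 44 CD4 T cells each and the treated mice 94 and 188, so the isotype values rest on few UMIs. Both treated mice stood above every isotype mouse, with a log2 change of 1.75 ± 0.53 and an edgeR adjusted p of 0.0630, which missed the threshold. It passed with no filter on low counts (1.84, edgeR adjusted p = 0.00849), with the replicate block (1.73, adjusted p = 0.0287) and without B2m-null CD40 replicate 1 (adjusted p = 0.0241). In CD4 T cells the gene passed the filter on low counts only through the control CD40 mice, where it was highest. Tests of Cd40lg in this set that kept the filter therefore give no support for a difference between groups. In B2m-null tumours Cd40lg was 22.1 and 10.2 CPM under isotype and 17.7 to 56.4 CPM under CD40, with overlap (log2 change 1.04 ± 0.65, SE, edgeR adjusted p = 0.436). There the isotype mice had 71 and 20 CD4 T cells and the treated mice 21 to 311.

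Conventional and mature dendritic cells were tested together in B2m-null tumours, where 0 of 9 members were called, against 0.899% of 9450 genes. Cd40 averaged 109 CPM under isotype and 252 CPM under CD40 (log2 change 1.21 ± 0.33, SE, n = 3 against 4, edgeR adjusted p = 0.0838), and Map3k14 107 and 53.1 CPM (-0.95 ± 0.26, adjusted p = 0.0855). DESeq2 called both (adjusted p = 0.00958 and 0.0450), as did edgeR with no filter on low counts (adjusted p = 3.23e-05 and 0.0220), and Cd40 was called with all gated cells by lane (1.21, edgeR adjusted p = 0.0263). In all, 3 members had an unadjusted edgeR p under 0.05. This set mixes 3 classes whose shares can differ between groups. In mature DC alone, over all cells of a pool, the level of Cd40 was 196 and 205 CPM for the isotype pools with B2m-null tumours and 424 and 522 CPM for the treated ones, which held 69 and 19 such cells. In control tumours it was 240 and 219 CPM under isotype and 348 CPM in the 24 mature DC of the CD40 pool. No count test between groups was run on mature DC alone, of which 1 B2m-null CD40 mouse and no control CD40 mouse had 20. Under isotype, Cd40 in mature DC was 236 CPM ± 33.9 (SD, n = 5) in control and 194 CPM ± 51.2 (n = 4) in B2m-null tumours, with overlapping ranges. For the other contrasts of these sets edgeR called 0 members, with 3 (CD8 T) at an unadjusted p under 0.05 for genotype under isotype, 3 (1 each in CD8 T, CD4 T and NK) for genotype under CD40 and 5 (4 in CD8 T and 1 in NK) for the difference of effects. DESeq2 called 1 of these, the difference for Traf1 in CD8 T cells (0.59, adjusted p = 0.0481), which was also called with the replicate block (0.65, edgeR adjusted p = 0.0346) and without B2m-null CD40 replicate 1 (0.70, adjusted p = 0.0373). In CD8 T cells without B2m-null CD40 replicate 2, Cd40 was called for genotype under CD40 (2.07, edgeR adjusted p = 0.0120) and, with Nfkb2, for the difference (2.54 and 0.79, adjusted p = 0.0293 and 0.0437). Traf1 in CD4 T cells was called for genotype under CD40 with 50 cells per mouse (0.66, edgeR adjusted p = 0.0320). The shares of all genes called were 0.18% (dendritic cells), 0.329% (CD8 T), 0.13% (CD4 T) and 0.0201% (NK) for genotype under isotype, 7.1%, 1.37%, 0.885% and 0% (CD8 T, CD4 T, NK and B) for genotype under CD40, and 8.88%, 0.492% and 1.19% (CD8 T, CD4 T and NK) for the difference of effects. In B cells 295 of 2761 genes had an unadjusted edgeR p under 0.05.

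The wider pathway was described by 3 lists of named genes. Of 24 other proximal genes of the CD40 and TRAF pathway, all 24 were tested in macrophages, and 8 rose and 5 fell under CD40 in B2m-null tumours, where 35.2% of all genes were called. The largest rises were in Tnip1, an inhibitor of NF-kB signalling, from 23.7 to 44.9 CPM (log2 change 1.10 ± 0.12, SE, edgeR adjusted p = 8.72e-06), and in the IkB genes Nfkbib (0.94) and Nfkbie (0.94). Map3k1, Rel and Tab2 fell (log2 changes of -0.53, -0.48 and -0.46). In control tumours 3 rose, namely Tnip1 (0.77 ± 0.14, SE, edgeR adjusted p = 0.000878), Ikbkg (0.44) and Map3k1 (0.38), and 0 fell, a share below the 20.7% of all genes. The list's median log2 change was 0.03 and 0.05 in the 2 genotypes, close to that of all genes, -0.01 and -0.02.

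Of 20 genes known to rise in cells stimulated through CD40, 16 were tested in macrophages, and 5 rose and 1 fell in B2m-null tumours, about the share of all genes called (35.2%). Icam1, an adhesion molecule, rose from 31.3 to 60.8 CPM (1.15 ± 0.18, SE, edgeR adjusted p = 0.000163), the death receptor gene Fas by 0.86 and the survival gene Bcl2a1b by 0.84, while Cd83 fell (-0.63). In control tumours 2 of the 16 rose and 1 fell, where 20.7% of all genes were called. Tnfaip2 rose there from 73.3 to 223 CPM (1.76 ± 0.12, SE, edgeR adjusted p = 5.63e-08) and Fas by 0.90, and the costimulatory ligand gene Cd86 fell from 95.7 to 48.0 CPM (-0.82 ± 0.18, adjusted p = 0.00342). Outside the 3 largest rises, and chosen after its values were seen, Cd86 in B2m-null macrophages rose from 57.8 to 81.6 CPM (0.66 ± 0.14, SE, edgeR adjusted p = 0.00164). In monocytes 4 of 14 rose and 2 fell in B2m-null tumours, and 1 rose and 1 fell in control tumours, where 17.1% and 6.92% of all genes were called.

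Of 11 other TNF receptors that recruit TRAFs, 9 were tested in macrophages, and 2 rose and 1 fell in B2m-null and 3 rose in control tumours (35.2% and 20.7% of all genes called). Tnfrsf9, which encodes 4-1BB, rose in both genotypes, from 7.15 to 21.2 CPM in B2m-null tumours (1.57 ± 0.34, SE, edgeR adjusted p = 0.00188) and from 7.48 to 19.3 CPM in control tumours (1.38 ± 0.38, adjusted p = 0.0157). Tnfrsf1b, which encodes TNF receptor 2, rose by 0.33 and 0.71, and Tnfrsf13b fell in B2m-null tumours (-0.40). Cd27, a T cell receptor gene of this family and 1 of the 3 that rose in control macrophages, was called there at 0.51 and 1.23 CPM. These levels are near the floor of the filter on low counts, and the T cell markers were also higher under CD40 there. The part of these markers in the changes of Cd27 and Tnfrsf9 was not tested. In CD8 T cells of control tumours 7 of the 24 proximal genes rose and 1 fell, 5 of the 16 tested stimulation genes rose and 5 fell, and 3 of 9 receptors fell, where 32.1% of all genes were called.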

How the data were processed

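Droplet single-cell RNA sequencing of CD45-enriched tumour cells was deposited by the authors as UMI counts per gene and barcode, with hashtag counts in the same files. Reads were processed with Cell Ranger 3.0.0 on mm10, per the submitters' processing notes. A cell needed 200 detected genes and no more than 10% of its counts from mitochondrial genes. Barcodes with a second hashtag 2.5 SD above background were removed as doublets (9673 of 116552, 8.30%), and the others with 20 or more went to a mouse by Gaussian mixture (scikit-learn 1.9.0, posterior 0.9), except in B2m-null isotype replicate 1, where the mixture was not usable and cells with exactly 1 raised hashtag were used. In B2m-null isotype replicate 1 the mixture and the rule of 1 raised hashtag agreed for 41.5% of the barcodes that both assigned, against 99.3% or more in the other lanes. Doublets within a mouse are not marked. Of the kept cells 70.1% were gated to a class, 6.12% carried markers of several lineages and 23.8% had no class. The gate's minimum UMIs were set after marker counts were seen. Each hashtag in the files was taken as a mouse, although the labels list 3 per pool and 6 of 8 lanes hold 2, and mice of a pool share its lane, so p-values over mice can be too small. The technical lanes of control CD40 were summed as 1 pool.

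UMIs were summed per mouse and set and tested with edgeR 4.0.16 (quasi-likelihood, TMM, filterByExpr, all 4 groups in 1 fit, Benjamini-Hochberg adjustment over all genes). It recovered planted changes in macrophage counts simulated without a pool or lane effect. The planted changes were larger than several of those called here, so the simulation does not check these calls. Classes were compared by exact two-sided sign-flip permutation of log2(CPM + 1) over isotype mice, with a pseudocount of 1. DESeq2 1.42.0 and limma 3.58.1 were alternatives. The SE printed with an edgeR log2 change is the absolute change divided by the square root of the F statistic. It is an approximation and need not match the p-value. The 10 members were always named, other genes by the 3 largest calls in macrophages per list, direction and CD40 contrast (Cd86 in B2m-null tumours is an exception), and genes like Cd40 by the 5 highest correlations among genes of at least 20 CPM in 1 class. The members and lists were chosen with earlier results of these data known. Motifs and coordinates used GRCm38, the same build as mm10.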

Additional observations from a re-analysis of the deposited data

Results flagged for a closer look

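In all, 3 differences between the CD40 effects in B2m-null and control tumours passed the test of the difference itself in edgeR, for Traf1 in macrophages (1.69 log2 units), Traf1 in monocytes (1.28) and Cd40 in monocytes (1.44). The 2 control CD40 mice in these came from 1 pool. Without either of them the calls of Traf1 in macrophages and Cd40 in monocytes ended, and without mouse 2 that of Traf1 in monocytes did.

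Among 33 groups of 4 or more mice examined, the lowest mouse stood apart from the others in B2m-null isotype macrophages for Traf3, at 17.5 CPM, and for Nfkb2, at 22.9 CPM. It was the same mouse, of replicate 2. Chance marks about 1 in 20 such groups.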

How the results depend on the processing

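Calls of members were counted again under other settings. With the lane as the unit and assigned cells, 6 calls for CD40 in B2m-null tumours were made, in place of 10, without macrophage Nfkb2, Traf2 and Traf5 and monocyte Relb, and 0 in each of the other 4 comparisons. With all gated cells by lane, the counts were also 0 in those 4. For genotype under CD40 the count was 1, and it was 2 with no filter, with 50 cells per mouse and with the replicate block, and 0 with limma-voom and the pool as a block. For genotype under isotype it was 1, and 3 with DESeq2, 3 with no filter, 2 with the stricter gate, 2 with cells free of other markers (added after seeing the data) and 0 with limma-voom. For the difference of effects it was 3, and 5 with DESeq2 and 6 with the replicate block. Leaving out 1 lane or 1 control CD40 mouse gave 0 to 3 for genotype under CD40, 0 to 2 for genotype under isotype, 5 to 10 for CD40 in B2m-null tumours, 0 to 4 for CD40 in control tumours and 0 to 7 for the difference. Without control CD40 mouse 1 and mouse 2 the counts were 0 and 0 for genotype under CD40, 2 and 0 for CD40 in control tumours and 1 and 0 for the difference, with the spread of the 1 mouse left taken from the other groups. Same-numbered lanes of different groups are not stated to share a day or animal. The correlations of their deviations were 0.08, 0.12 and 0.26, the last between B2m-null isotype and B2m-null CD40. Median UMIs per barcode were lower in replicate 1 than in replicate 2 for control isotype (2756 and 3348), B2m-null isotype (2182 and 4225) and B2m-null CD40 (2821 and 3610). Whether these lanes share a batch was not tested. The replicate block gave 11 and 4 calls for CD40 in B2m-null and control tumours. This block enters the replicate number as a numeric term, with control CD40 set midway between replicates 1 and 2. That place was chosen and not measured, so calls with the block in comparisons that use control CD40 rest on it.

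Of the class comparisons, with the lane as the unit Cd40 in mature DC exceeded macrophages by 2.41, macrophages exceeded CD8 T cells by 2.09 and Cd40lg in CD4 T cells exceeded CD8 T cells by 3.18, where 4 lanes cannot give an exact p below 0.125. The Cd40lg difference was 4.26 with the stricter gate and 5.07 in thinned cells (both exact permutation p = 0.0625), and 2.42 to 3.37 without 1 lane. For B cells 5 alternatives, and for Cd40lg the minimum of 50 cells, left too few mice and were not run. For the 18 member results called in the reported fit, 280 alternative values kept the call and 78 did not, and none changed sign. A further 39 alternative values, of 20 member results not called there, passed the threshold. Among these, Traf5 for genotype under isotype was called in macrophages free of other markers (-0.47), Traf3 in B2m-null macrophages without CD40 replicate 2 (0.52), and Cd40 in control CD8 T cells with no filter (-1.04).

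Without TMM, added after seeing the data, the median log2 change of all macrophage genes under CD40 was -0.22 in B2m-null and -0.17 in control tumours, and 1042 of 5104 called genes rose in B2m-null macrophages, against 2193 of 4241 with TMM. In monocytes 486 of 1758 rose, against 832 of 1480. Traf2, Traf5 and monocyte Nfkb2 in B2m-null tumours, Traf3 in control macrophages and the monocyte difference for Cd40 lost their calls, while Map3k14 gained one in B2m-null macrophages (-0.52) and one for the difference in CD8 T cells (-1.15), the latter also with the replicate block (-1.04).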
